A study of Saccharomyces cerevisiae with 12 samples.

Results

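The comparison set the budding yeast strain without the SDC1 gene (Sdc1_KO) against the strain carrying a point mutation in SDC1 (Sdc1_mut), at the RNA of 7057 nuclear identifiers. Members were taken by libraries and by location: the 4 libraries of both strains among the 12 of the series, and every identifier that the deposited table neither places on mitochondrial DNA nor marks as too deep to estimate. That rule gave 7082 of 7126 identifiers, and 25 of these (RPM1 and the mitochondrial tRNAs) were left out as mitochondrial by name. An expression filter left 6340 nuclear identifiers that were tested.

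All strains of the series share the background MGD353-13D, and cells were taken at mid log phase from YPD, a rich glucose medium. Sdc1_KO carries a deletion of SDC1, and Sdc1_mut a point mutation whose position the labels do not give. The other 8 libraries come from a strain with the DPY30 motif of Sdc1 deleted (Dpy30_KO), from the point mutant combined with a JHD2 deletion (Sdc1_mut + Jhd2_KO), from a JHD2 deletion (Jhd2_KO) and from the wild type (WT), with 2 libraries in each. No drug or other agent was added per the labels. The labels do not say how the strains were built, whether a group is 1 clone, or whether its 2 libraries are separate cultures. The p-values therefore describe only the spread between libraries, which may be technical. That spread was estimated in 1 fit of all 6 groups. The standard deviation of the log2 difference between the 2 libraries of a group was 0.428 in Sdc1_KO, and 0.24 to 0.295 in the other groups. The p-values thus borrow the smaller spread of the other groups and may be too small for Sdc1_KO. Libraries were directional and made from total RNA after removal of ribosomal RNA. The Sdc1_KO libraries held 13597606 and 17597006 fragments assigned to genes, and the Sdc1_mut libraries 10807158 and 14637999.

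Sdc1 is a subunit of the Set1 complex (COMPASS), which methylates lysine 4 of histone H3, a mark of active genes and, in its trimethylated form, of their starts. Sdc1 is the yeast relative of mammalian DPY30: it pairs with the subunit Bre2 through its DPY30 motif and helps the catalytic subunit Set1 to add the later methyl groups. Jhd2 is the demethylase that removes them. A deletion removes the whole protein and its transcript, while a point mutant still makes the transcript, and the comparison asks in which genes the strains differ.

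SDC1 (chrIV:1399015-1399542 in the R64 genome, the build called sacCer3) was read first as a check of the labels. It had 0 and 0 fragments in the Sdc1_KO libraries, against 414 and 560 fragments in the Sdc1_mut libraries. A floor of 3 fragments per library puts SDC1 at least 208-fold lower in Sdc1_KO. In CPM (fragments per 1000000 assigned to genes, scaled between libraries by the TMM method), Sdc1_mut had 38.5 and 39.2, above the 24.3 and 25.5 CPM of WT. The neighbours did not pass the test: TLG1 had 44.9 and 41.6 CPM in Sdc1_KO, against 55.2 and 48.9 CPM in Sdc1_mut, and UGO1 had 39.4 and 44.9 CPM, against 36.6 and 37.5 CPM.

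Of the 8 subunits of the Set1 complex, SDC1 fell and SWD1, a WD-repeat subunit, rose. SWD1 had 50 and 36.5 CPM in Sdc1_KO, against 30.1 and 33.2 CPM in Sdc1_mut, a log2 fold change of 0.45 ± 0.14 (± is the standard error throughout) with an adjusted p of 0.042. Without the first Sdc1_KO library it was 0.20 with an adjusted p of 0.3. SET1 itself had 86.6 and 87.1 CPM in Sdc1_KO, against 83.7 and 82.6 CPM in Sdc1_mut (0.06 ± 0.08, adjusted p = 0.63), and BRE2 had 71.2 and 85.2 CPM, against 90.1 and 81.7 CPM (-0.13 ± 0.11, adjusted p = 0.41). JHD2 had 17 and 14.1 CPM in Sdc1_KO, against 13 and 14.2 CPM in Sdc1_mut (0.19 ± 0.20, adjusted p = 0.55).

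Of the 6340 nuclear genes tested, 1339 (21.1%) were called at an adjusted p under 0.05 by the quasi-likelihood test of edgeR, 698 (11.0%) higher and 641 (10.1%) lower in Sdc1_KO. A change of at least 2-fold was called in 228 genes (3.60%), 145 higher and 83 lower. The median log2 fold change over all genes tested was 0.00. The count depended on the libraries: it was 2121 without the second Sdc1_KO library, 627 without the first Sdc1_mut library, 655 without the second, and 436 in a fit of these 4 libraries alone. For 56.0% of genes tested the Sdc1_KO and Sdc1_mut libraries did not overlap.

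Some features of the libraries move with the comparison and stand beside the gene groups below. RNA encoded on mitochondrial DNA made up 3914 and 2739 fragments per 1000000 in the Sdc1_KO libraries, against 0.8328 and 0.1366 in the Sdc1_mut libraries, which is 9 and 2 fragments in all. The Dpy30_KO and Sdc1_mut + Jhd2_KO libraries also held between 8 and 17 such fragments, while the Jhd2_KO and WT libraries lay between 1349 and 3375 per 1000000. Genes of chromosome III stood higher in both Sdc1_KO libraries. The Sdc1_KO libraries also differ more from each other than those of the other groups: 148 of 5736 genes of at least 5 CPM differ at least 2-fold between them, against 4 between the Sdc1_mut libraries and 2 to 16 in the other 4 groups.

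**Figure D1:**
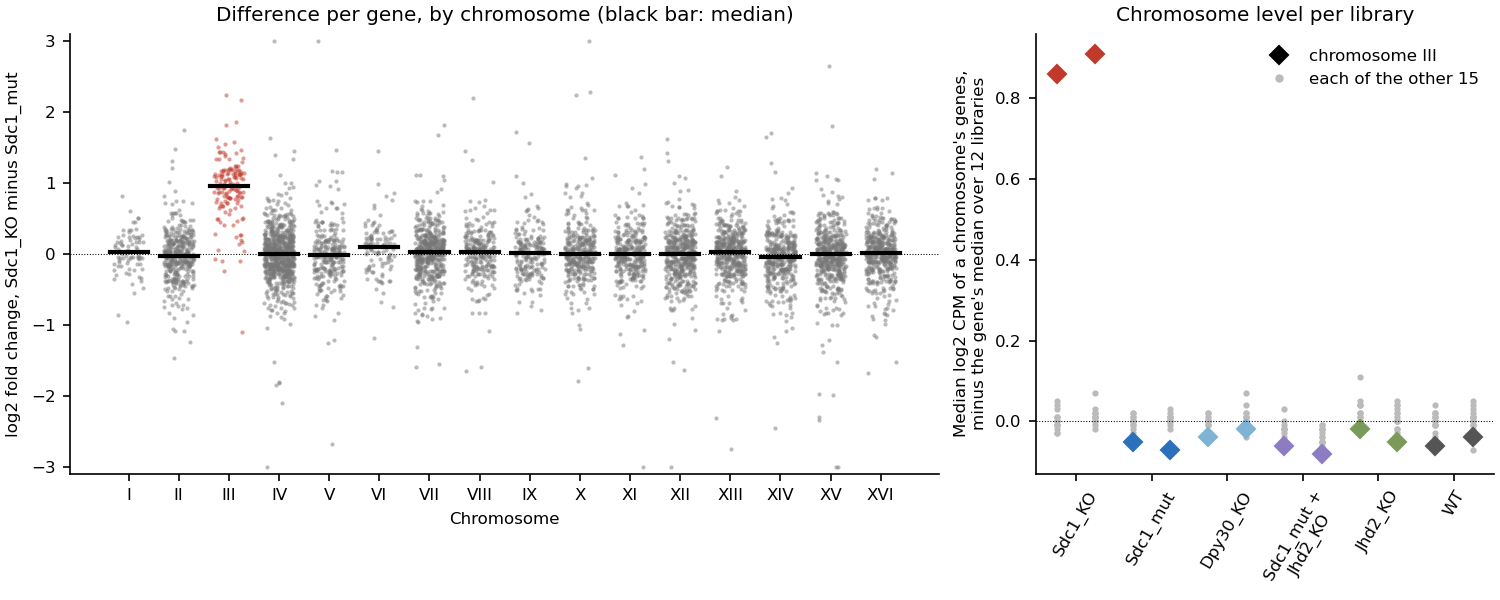
Left: log2 fold change of Sdc1_KO minus Sdc1_mut for each nuclear gene of at least 5 CPM, by chromosome (points; values beyond 3 are drawn at 3), with the chromosome's median as a black bar. Right: for each library, the median over a chromosome's genes of log2 CPM minus that gene's median over the 12 libraries, for chromosome III (diamonds, coloured by group) and each of the other 15 chromosomes (grey points). Chromosome III lies at 0.86 and 0.91 in the Sdc1_KO libraries and between -0.08 and -0.02 in the other 10 libraries.

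The shift of chromosome III was seen in the values first and was then described, so it has no test of its own. Of its 160 genes tested, 126 (78.8%) were called higher in Sdc1_KO and 0 lower by edgeR, with a median log2 fold change of 0.93. Of the 144 with at least 5 CPM, the lower and upper quartiles were 0.74 and 1.15. The same quartiles of the 5592 such genes elsewhere were -0.21 and 0.18. Chromosome III thus held 18.1% of all genes called higher, and 71 of the 145 (49.0%) that were at least 2-fold higher.

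The shift ran along the whole chromosome. In 40-kb windows from end to end the median log2 fold change lay between 0.84 and 1.09, over 12 to 24 genes a window. The other 15 chromosomes had medians between -0.04 and 0.10. Against WT, the median of chromosome III was 1.05 for Sdc1_KO and 0.05 for Sdc1_mut. DNA was not measured in these libraries, and the number of copies of chromosome III was not tested. Outside chromosome III, 1213 of 6180 genes (19.6%) were called, 572 (9.26%) higher and 641 (10.4%) lower, and their median log2 fold change was -0.01.

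The genes for which Sdc1_KO lay farthest above all other libraries of the series were on chromosome III: CTR86, ERS1, CWH43, CDC50, EMC1 and FIG2. CWH43, which acts on the lipid of GPI anchors, had 550 and 541 CPM in Sdc1_KO, against 231 and 245 CPM in Sdc1_mut (1.20 ± 0.09, adjusted p = 2.7e-06), and 203 to 242 CPM in the other 8 libraries. EMC1, a subunit of the membrane protein complex of the endoplasmic reticulum, had 527 and 441 CPM, against 195 and 216 CPM (1.23 ± 0.11, adjusted p = 8.4e-06). CDC50, a partner of the lipid flippase Drs2, had 99.8 and 88.5 CPM, against 40.1 and 39.5 CPM (1.24 ± 0.11, adjusted p = 8.2e-06). The genes were picked by their gap to the nearest of the other 10 libraries, so standing above these is no separate result.

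Over the genome, 303 called genes (4.78%) had both Sdc1_KO libraries above all other 10, and 114 of these lie on chromosome III. Another 210 (3.31%) had both below all other 10, none of them on chromosome III (0). A few genes of the chromosome did not follow: 5 of the 144 had a negative log2 fold change, none called. They include HSP30, a stress protein of the plasma membrane, with 30.6 and 151 CPM in Sdc1_KO, against 212 and 177 CPM in Sdc1_mut (-1.10 ± 0.48, adjusted p = 0.13), and SRO9, an RNA-binding protein (-0.10 ± 0.11, adjusted p = 0.56). Both were named after their values were seen.

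Several of the genes that fell most in Sdc1_KO, after SDC1, serve iron uptake. Yeast takes up iron through cell wall mannoproteins that hold siderophores (FIT genes), siderophore transporters (SIT1, the ARN genes), surface reductases (FRE genes) and the oxidase and permease pair FET3 and FTR1. The activator Aft1 turns these genes on through the element TGCACCC, and Grx4 with Fra1 restrains Aft1 when iron-sulphur clusters, made in mitochondria, are plentiful. TIS11 (also called CTH2) marks RNAs of iron-using proteins for decay. The element lay in 13 of 26 promoters of the list on either strand, against 1.29% of all 5987 promoters, and 11 of these 13 genes were called lower. The promoter windows of 3 called genes that hold it, FIT3, FIT2 and the transporter SIT1, are given 5′ to 3′ on the strand of the gene, from 250 bases before to 50 after the annotated start (RefSeq, R64), with each TGCACCC or its reverse complement in capitals.
FIT3, chrXV:1061006-1061305, reverse strand: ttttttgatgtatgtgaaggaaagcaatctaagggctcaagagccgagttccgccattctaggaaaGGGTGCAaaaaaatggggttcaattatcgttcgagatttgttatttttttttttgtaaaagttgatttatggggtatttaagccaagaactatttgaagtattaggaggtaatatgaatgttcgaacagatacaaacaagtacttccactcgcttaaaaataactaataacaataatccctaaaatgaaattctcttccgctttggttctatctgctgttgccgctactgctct
FIT2, chrXV:1059281-1059580, forward strand: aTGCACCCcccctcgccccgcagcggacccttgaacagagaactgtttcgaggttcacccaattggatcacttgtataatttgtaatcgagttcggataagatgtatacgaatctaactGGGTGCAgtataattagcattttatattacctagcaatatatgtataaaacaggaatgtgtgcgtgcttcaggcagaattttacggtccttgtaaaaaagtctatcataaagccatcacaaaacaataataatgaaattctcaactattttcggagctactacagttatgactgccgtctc
SIT1, chrV:27407-27706, forward strand: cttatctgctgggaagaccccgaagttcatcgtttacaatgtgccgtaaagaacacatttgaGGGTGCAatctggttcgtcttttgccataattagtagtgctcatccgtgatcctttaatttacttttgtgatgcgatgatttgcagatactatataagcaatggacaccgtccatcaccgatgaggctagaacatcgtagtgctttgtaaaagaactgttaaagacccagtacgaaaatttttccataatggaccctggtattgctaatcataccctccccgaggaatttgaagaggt
The element starts 184 bases before the FIT3 start, 249 and 131 bases before the FIT2 start, and 188 bases before the SIT1 start. The FET3 window held no whole match. It opens with gcaccc, all but the first letter of the element, so the edge of the window cuts a possible match. The base before that edge was not examined. A match of letters describes the window only, and binding of Aft1 was not measured.

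FIT3 had 36.9 and 25.9 CPM in Sdc1_KO, against 663 and 678 CPM in Sdc1_mut. That is 21.4-fold lower (log2 fold change -4.42 ± 0.16, adjusted p = 3e-09). WT had 38.8 and 36.8 CPM, near Sdc1_KO, and Dpy30_KO had 789 and 802 CPM, near Sdc1_mut. FIT2 had 17.8 and 11.6 CPM, against 175 and 169 CPM (-3.55 ± 0.17, adjusted p = 3.1e-08), with 7.11 and 6.95 CPM in WT. In each gene the Sdc1_KO and Sdc1_mut libraries were far apart.

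The pattern held for transport at the membrane. FET3, the iron oxidase, had 30.4 and 27.2 CPM in Sdc1_KO, against 189 and 197 CPM in Sdc1_mut (-2.75 ± 0.12, adjusted p = 8.8e-09). SIT1 had 19.2 and 17.3 CPM, against 111 and 122 CPM (-2.68 ± 0.12, adjusted p = 1.8e-08). TIS11 had 5.34 and 5.46 CPM, against 42.8 and 45.5 CPM (-3.03 ± 0.14, adjusted p = 1.8e-08). For TIS11 and FET3 both Sdc1_KO libraries also lay below WT, which had 10.4 and 11.6 CPM of TIS11 and 50.3 and 43.9 CPM of FET3. For SIT1 they lay above WT, at 8.63 and 8.84 CPM.

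Of the 26 genes for iron uptake and sparing, 17 were called lower, 1 higher and 8 neither, with a median log2 fold change of -0.86. None lies on chromosome III (0). The count of lower genes stayed between 16 and 19 when any 1 of the 4 libraries was left out. The gene called higher was CCC1, which moves iron into the vacuole and so acts in the other direction: it had 70.6 and 90.9 CPM in Sdc1_KO, against 52.1 and 48 CPM in Sdc1_mut (0.69 ± 0.13, adjusted p = 0.0025). Among the regulators, AFT1 had 64.4 and 65 CPM, against 97.6 and 98.3 CPM (-0.60 ± 0.09, adjusted p = 0.00036), GRX4 had 18.7 and 26.4 CPM, against 10.4 and 10 CPM (1.15 ± 0.19, adjusted p = 0.00087), and FRA1 fell by 0.61 ± 0.10 on the log2 scale (adjusted p = 0.0013). The libraries with much mitochondrially encoded RNA (Sdc1_KO, Jhd2_KO and WT) had the list's median 0.47 to 0.67 below the genes' medians on the log2 scale, and the other 6 libraries 0.42 to 0.51 above; the part of the mitochondrial RNA in this was not tested.

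**Figure D2:**
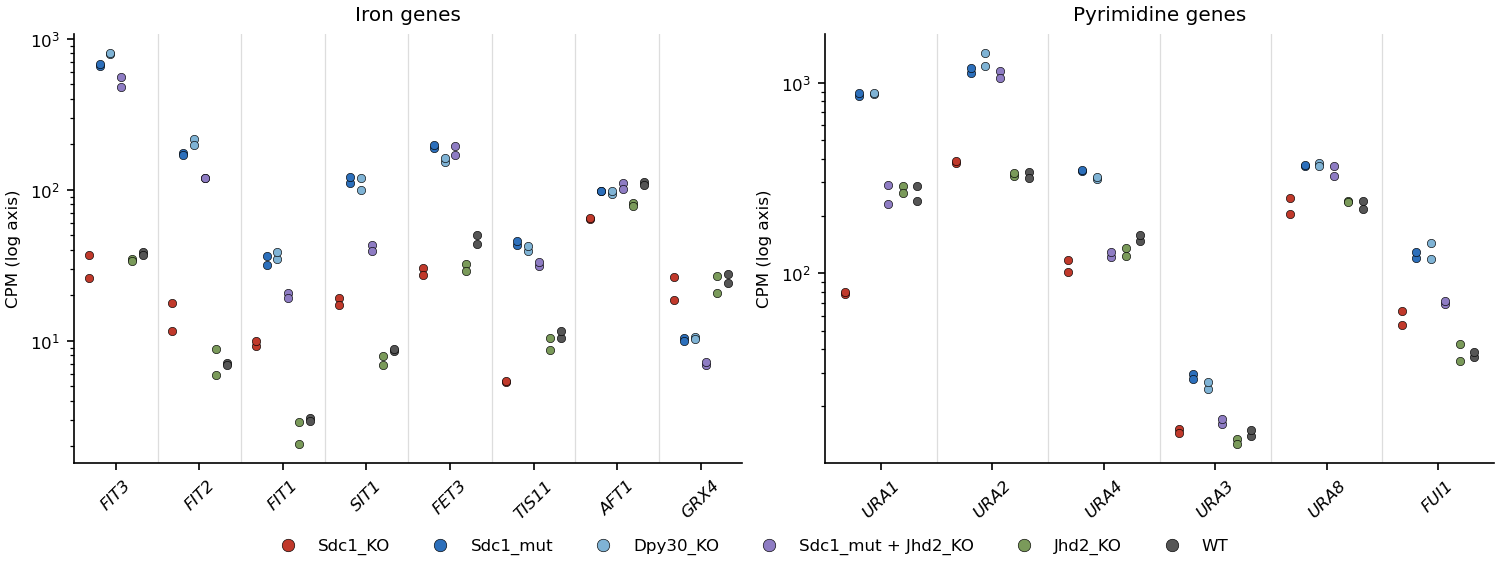
CPM (log axis) of iron genes (left) and pyrimidine genes (right) in each of the 12 libraries, coloured by group; each point is 1 library. FIT3 lies at 36.9 and 25.9 CPM in Sdc1_KO and at 663 and 678 CPM in Sdc1_mut, and URA1 at 77.9 and 79.3 CPM in Sdc1_KO, below all other libraries.

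Pyrimidine synthesis also fell. URA2 opens the pathway, URA4 and URA1 encode the dihydroorotase and the dihydroorotate dehydrogenase, URA3 makes UMP, and URA8 makes CTP; the yeast dehydrogenase is a cytosolic enzyme that does not need the respiratory chain. The activator Ppr1, which senses pathway intermediates, binds CGG and CCG with a fixed gap between them. Letters of that form (CGGNNNNNNCCG, chosen after the values were seen) lay in 3 of 13 promoters of the list on either strand, URA1, URA3 and URA4, against 1.25% of all promoters, and all 3 genes were called lower. The windows of URA1, which held 2 matches, and URA4 are given as above with the matches in capitals.
URA1, chrXI:24965-25264, forward strand: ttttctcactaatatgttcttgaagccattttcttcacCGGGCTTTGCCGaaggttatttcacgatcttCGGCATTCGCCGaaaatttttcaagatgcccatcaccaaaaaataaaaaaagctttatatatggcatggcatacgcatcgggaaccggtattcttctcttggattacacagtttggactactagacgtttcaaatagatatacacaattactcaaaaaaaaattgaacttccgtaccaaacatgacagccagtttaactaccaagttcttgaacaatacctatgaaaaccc
URA4, chrXII:963535-963834, forward strand: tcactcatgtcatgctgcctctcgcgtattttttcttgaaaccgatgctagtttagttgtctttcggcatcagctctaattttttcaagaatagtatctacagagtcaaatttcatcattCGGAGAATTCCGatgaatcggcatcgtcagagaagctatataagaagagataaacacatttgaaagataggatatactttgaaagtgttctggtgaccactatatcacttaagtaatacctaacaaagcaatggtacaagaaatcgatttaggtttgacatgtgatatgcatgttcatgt
The matches start 212 and 181 bases before the URA1 start and 130 bases before the URA4 start, and binding of Ppr1 was not measured.

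URA1 had 77.9 and 79.3 CPM in Sdc1_KO, against 852 and 882 CPM in Sdc1_mut, 11.0-fold lower (-3.46 ± 0.14, adjusted p = 6.8e-09). Both Sdc1_KO libraries lay below every other library of the series, WT having 241 and 288 CPM, so the lower level of Sdc1_KO and the higher level of Sdc1_mut lay on either side of WT. URA4 had 102 and 118 CPM in Sdc1_KO, against 343 and 347 CPM in Sdc1_mut (-1.64 ± 0.10, adjusted p = 3.5e-07). URA2 had 379 and 388 CPM, against 1134 and 1204 CPM (-1.61 ± 0.11, adjusted p = 9.5e-07), and FUI1, the uridine permease, 63.3 and 53.4 CPM, against 120 and 129 CPM (-1.09 ± 0.12, adjusted p = 5.8e-05).

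Of 13 genes of pyrimidine synthesis and salvage, 8 were called lower and 1 higher, with a median log2 fold change of -0.59 and none on chromosome III (0). Leaving out any 1 library gave 6 to 9 lower genes. The higher gene was FUR1, the uracil salvage enzyme, with 82.7 and 92.7 CPM in Sdc1_KO, against 58.7 and 55.8 CPM in Sdc1_mut (0.62 ± 0.12, adjusted p = 0.0032). URA3 had 15.2 and 14.5 CPM, against 29.6 and 27.7 CPM (-0.94 ± 0.12, adjusted p = 0.00016); URA3 and LEU2 are common strain markers, and the marker state of these strains is not given in the sources used here.

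RNA for the respiratory chain was higher in Sdc1_KO. The bc1 complex, cytochrome c oxidase and the ATP synthase combine nuclear and mitochondrially encoded subunits, and the nuclear ones respond to the Hap2/3/4/5 activator, which binds CCAAT. Of the nuclear genes, 10 of 11 for bc1 and cytochrome c, 7 of 9 for the oxidase, 13 of 15 for the ATP synthase and 10 of 14 for succinate dehydrogenase and the later TCA cycle were called higher, with 0 lower. The medians were 0.74, 0.65, 0.89 and 0.58 in that order, and none of these genes lies on chromosome III. CCAAT lay in 7 of 11, 8 of 9, 14 of 15 and 9 of 14 of the promoters, against 43.3% of all promoters.

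RIP1, the iron-sulphur protein of bc1, had 176 and 206 CPM in Sdc1_KO, against 66 and 72.6 CPM in Sdc1_mut (1.46 ± 0.10, adjusted p = 9.3e-07), and 291 and 282 CPM in WT. COX5A, the aerobic oxidase subunit, had 82.6 and 85.8 CPM, against 31.3 and 37.6 CPM (1.28 ± 0.10, adjusted p = 2.9e-06). SDH2, the iron-sulphur subunit of succinate dehydrogenase, had 192 and 229 CPM, against 69.3 and 67.7 CPM (1.62 ± 0.10, adjusted p = 4.1e-07), and 273 and 276 CPM in WT. For RIP1 and SDH2 the Sdc1_KO libraries thus lay between Sdc1_mut and WT.

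ATP7, of the stator stalk, had 157 and 156 CPM in Sdc1_KO, against 68.6 and 67 CPM in Sdc1_mut (1.20 ± 0.09, adjusted p = 1.1e-06). INH1, the inhibitor of the ATP synthase, had 42.3 and 45.7 CPM, against 16.4 and 18.4 CPM (1.33 ± 0.13, adjusted p = 1.7e-05). ACO1, aconitase, had 464 and 770 CPM, against 237 and 225 CPM (1.42 ± 0.19, adjusted p = 0.00019). The TCA list was the least steady of these: 10 genes were called higher in the full fit, 7 without the second Sdc1_KO library, 6 without the first Sdc1_mut library and 5 without the second. The oxidase list held 4 called genes without the first Sdc1_mut library. These genes were high where mitochondrially encoded RNA was present and low where it was nearly absent, and its part in the difference was not tested.

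**Figure D3:**
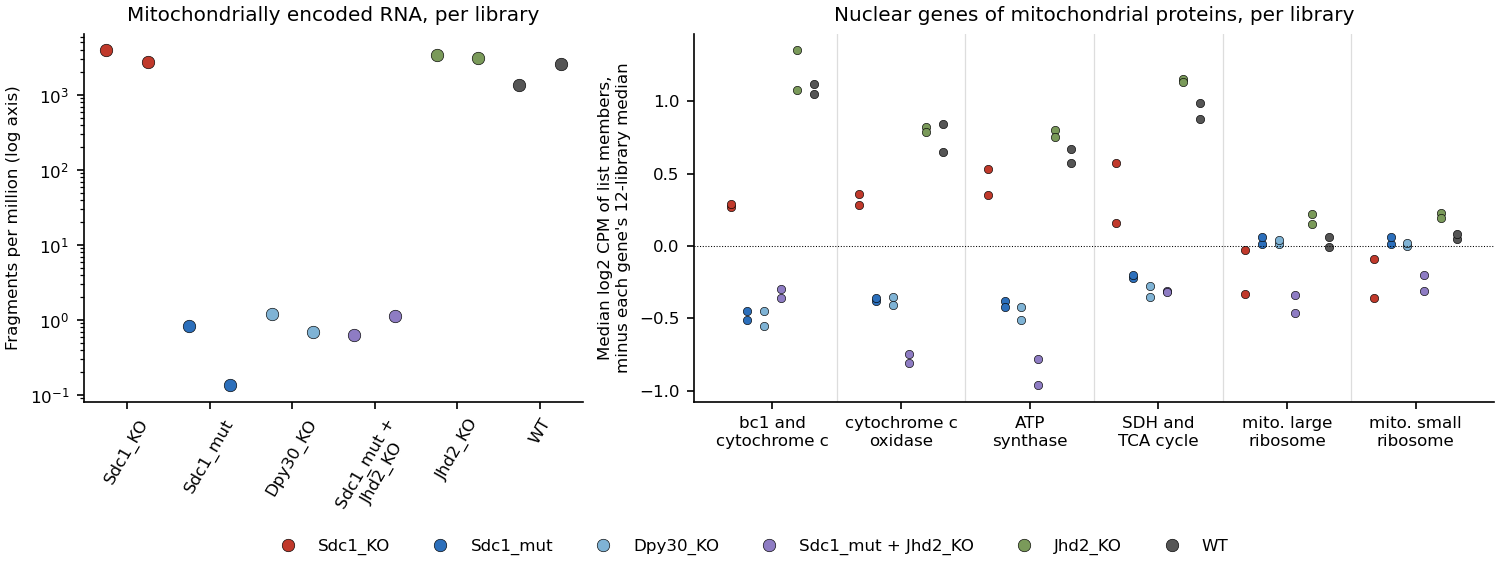
Left: fragments of mitochondrially encoded identifiers per 1000000 fragments (log axis) in each library. Right: for each list of nuclear genes and each library (points, coloured by group), the median over list members of log2 CPM minus the gene's 12-library median. The Sdc1_KO libraries lie at 3914 and 2739 per 1000000 and the Sdc1_mut libraries at 0.8328 and 0.1366; for bc1 and cytochrome c, Sdc1_KO lies at 0.27 and 0.29, Sdc1_mut at -0.51 and -0.45, and WT at 1.05 and 1.12.

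The proteins that read out mitochondrial DNA did not move with the chain. Of 39 genes for the large mitochondrial ribosomal subunit, 11 were called lower and 3 higher, and the 3 higher (MRPL32, IMG1 and IMG2) all lie on chromosome III. Of 29 genes for the small subunit, 10 were called lower and 0 higher. MRP20 had 88.6 and 110 CPM in Sdc1_KO, against 150 and 164 CPM in Sdc1_mut (-0.66 ± 0.12, adjusted p = 0.002), and MRPS16 had 74.3 and 82.1 CPM, against 127 and 129 CPM (-0.71 ± 0.10, adjusted p = 0.00026). These counts were unsteady: in a fit of these 4 libraries alone 2 and 1 were lower. The medians were -0.12 and -0.17 without the first Sdc1_KO library, and -0.40 and -0.42 without the second.

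Of 13 genes for mitochondrial DNA upkeep and transcription, 4 were called higher and 2 lower, against 2 and 1 without the first Sdc1_mut library. MGM101, which binds and repairs mitochondrial DNA, had 95.2 and 93.8 CPM in Sdc1_KO, against 45.5 and 51.7 CPM in Sdc1_mut (0.96 ± 0.10, adjusted p = 2e-05). RIM1, the single-strand binding protein, had 168 and 197 CPM, against 102 and 92.9 CPM (0.91 ± 0.10, adjusted p = 5.6e-05), and lies on chromosome III. RPO41, the mitochondrial RNA polymerase, had 90.2 and 106 CPM, against 129 and 125 CPM (-0.38 ± 0.10, adjusted p = 0.017). CIT2 and DLD3, targets of the retrograde pathway from mitochondria to nucleus, were both higher: CIT2, on chromosome III, had 183 and 287 CPM, against 103 and 104 CPM (1.18 ± 0.26, adjusted p = 0.0073), and DLD3 225 and 149 CPM, against 87.6 and 80.4 CPM (1.15 ± 0.19, adjusted p = 0.001). Of the retrograde list, 4 of 14 were called higher and 1 lower, and the higher count was 7 without the first Sdc1_KO library and 2 without the second Sdc1_mut library.

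Synthesis of leucine, isoleucine and valine was higher. It takes place largely in mitochondria, needs iron-sulphur enzymes (ILV3, LEU1), and is controlled by Leu3. Of 13 genes, 11 were called higher and 1 lower, with a median log2 fold change of 0.72. Without LEU2 and ILV6, which lie on chromosome III, 9 of 11 were higher with a median of 0.60. ILV3, the dihydroxyacid dehydratase, had 586 and 465 CPM in Sdc1_KO, against 109 and 113 CPM in Sdc1_mut (2.24 ± 0.14, adjusted p = 3.2e-07), and 446 and 450 CPM in WT. LEU1 had 603 and 661 CPM, against 177 and 220 CPM (1.67 ± 0.15, adjusted p = 6.5e-06). LEU2 had 143 and 128 CPM, against 30.4 and 30 CPM (2.16 ± 0.14, adjusted p = 4.1e-07). The gene called lower was BAT2, the cytosolic aminotransferase, with 206 and 319 CPM, against 409 and 439 CPM (-0.69 ± 0.17, adjusted p = 0.011), while BAT1, its mitochondrial counterpart, was higher (1.32 ± 0.12, adjusted p = 7.4e-06).

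Genes known to respond to oxygen and heme led the rises: HEM13, TIR1 and DAN1 had the 3 largest log2 fold changes among called genes of at least 5 CPM. HEM13, coproporphyrinogen oxidase of heme synthesis, had 504 and 829 CPM in Sdc1_KO, against 56 and 55.3 CPM in Sdc1_mut (3.58 ± 0.21, adjusted p = 2.2e-07), with 380 and 431 CPM in WT. TIR1, a cell wall mannoprotein of cold and low oxygen, had 118 and 455 CPM, against 24.7 and 26.1 CPM (3.49 ± 0.45, adjusted p = 0.00015). WT had 373 and 382 CPM of TIR1, and Sdc1_KO did not pass edgeR's test against WT (-0.40 ± 0.39, adjusted p = 0.42). DAN1, a wall protein of anaerobic growth, had 9.51 and 26.5 CPM, against 2.69 and 1.82 CPM (3.02 ± 0.49, adjusted p = 0.00083), with 2.81 and 3.18 CPM in WT. In TIR1 and DAN1 the second Sdc1_KO library was well above the first, yet both were above the Sdc1_mut libraries.

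ANB1, the translation factor form made at low oxygen, had 49.6 and 82.8 CPM in Sdc1_KO, against 15.3 and 12 CPM in Sdc1_mut (2.28 ± 0.21, adjusted p = 1e-05), with 46.9 and 49.2 CPM in WT. OLE1, the fatty acid desaturase, had 390 and 1006 CPM, against 328 and 317 CPM (1.11 ± 0.29, adjusted p = 0.016), and without the second Sdc1_KO library the difference was 0.27 with an adjusted p of 0.044. YHB1, the flavohemoglobin, fell to 1009 and 1205 CPM, against 1895 and 2100 CPM in Sdc1_mut (-0.85 ± 0.12, adjusted p = 0.00029). Of the 15 genes of heme synthesis and oxygen control, 7 were called higher and 1 lower with a median of 0.07, and of 6 DAN and TIR genes 4 were called higher with a median of 1.18. Without the second Sdc1_mut library 4 of the 15 were higher, and without the second Sdc1_KO library all 6 of the DAN and TIR genes. HEM14 overlaps the gene BUD25, and the strand setting of the counting is not stated, so its value (0.97 ± 0.11) is uncertain.

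**Figure D4:**
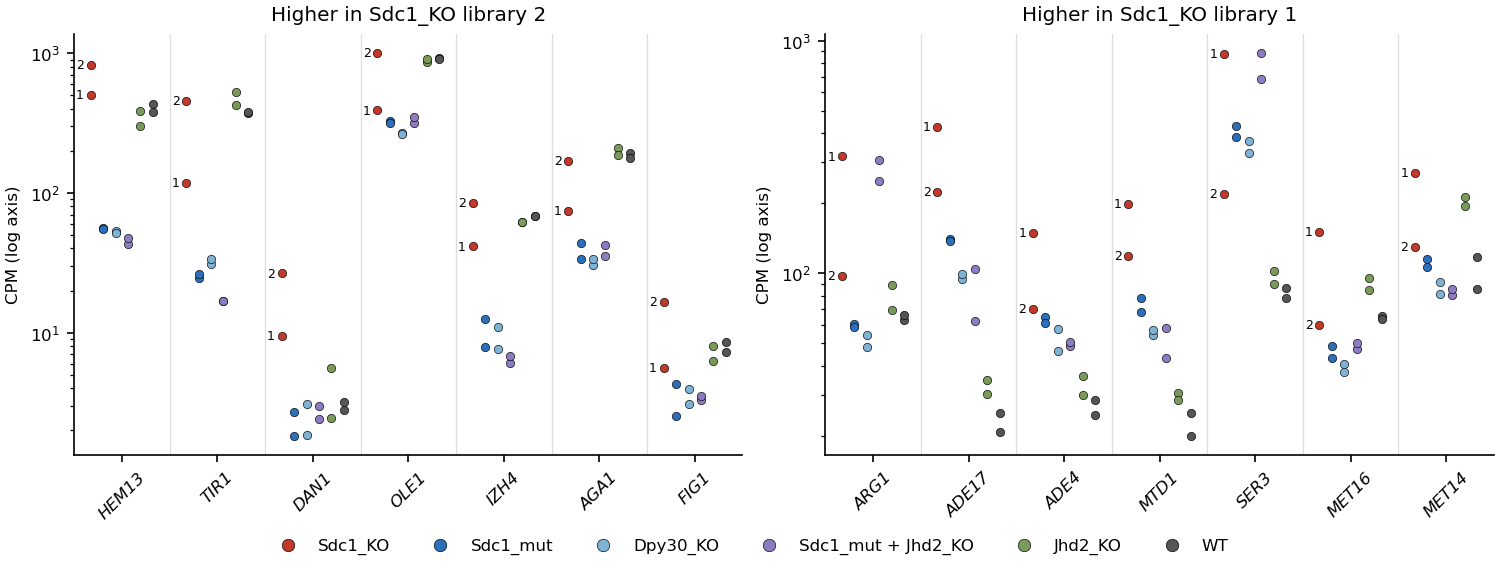
CPM (log axis) in each of the 12 libraries, coloured by group, for genes higher in the second (left) or first (right) Sdc1_KO library; the digits 1 and 2 mark those 2 libraries. TIR1 has 118 and 455 CPM in the first and second Sdc1_KO library, and ARG1 has 318 and 97.3 CPM.

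Several purine and one-carbon genes were higher in Sdc1_KO, and most so in its first library. ADE17, which completes the purine ring, had 425 and 224 CPM in Sdc1_KO, against 141 and 138 CPM in Sdc1_mut (1.22 ± 0.26, adjusted p = 0.0053). MTD1, a one-carbon enzyme, had 199 and 119 CPM, against 78.3 and 68.2 CPM (1.11 ± 0.20, adjusted p = 0.0021). SHM2, the cytosolic serine hydroxymethyltransferase, had 362 and 278 CPM, against 147 and 159 CPM (1.06 ± 0.16, adjusted p = 0.00051). All these Sdc1_KO libraries lay above Sdc1_mut, the first more so.

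Of 12 purine genes, 5 were called higher and 1 lower, against 1 higher without the first Sdc1_KO library, 9 without the second, and 1 without the first or without the second Sdc1_mut library. In a fit of these 4 libraries alone, 0 purine genes were called. Of 15 one-carbon, glycine and serine genes, 8 were higher and 1 lower, against 1 higher and 0 lower in the fit of these 4 libraries alone. The median log2 fold change of these 15 was 0.42, and it was 0.28 without the first Sdc1_KO library and 0.54 without the second. The element TGACTC, bound by Gcn4 and Bas1, lay in 8 of 12 and 10 of 15 of these promoters, against 8% of all promoters. Of 23 methionine and sulphur genes, 4 were higher and 1 lower, but this rested on single libraries. The counts were 18 and 1 without the second Sdc1_KO library, 3 and 3 without the first (median -0.05), and 0 and 0 without the first or without the second Sdc1_mut library. ARG1, of arginine synthesis, had 318 and 97.3 CPM, against 60.5 and 58.8 CPM (1.80 ± 0.37, adjusted p = 0.0046). SER3, which opens serine synthesis, had 875 and 219 CPM, against 429 and 386 CPM (0.42 ± 0.41, adjusted p = 0.5), so its Sdc1_KO libraries lay on both sides of Sdc1_mut, and the sign followed the library kept.

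Other amino acid genes moved in both directions: 16 of 46 were called higher and 6 lower, against 25 and 7 without the second Sdc1_KO library and 10 and 4 without the first or without the second Sdc1_mut library. HIS4 and THR4, both on chromosome III, had differences of 1.43 ± 0.12 (adjusted p = 3.9e-06) and 1.11 ± 0.11 (adjusted p = 1.3e-05). LYS9, of lysine synthesis, had 901 and 1250 CPM in Sdc1_KO, against 1907 and 1911 CPM in Sdc1_mut (-0.83 ± 0.15, adjusted p = 0.0019). IMD2, the IMP dehydrogenase that limits guanine nucleotides, had 512 and 699 CPM, against 97.7 and 168 CPM (2.19 ± 0.23, adjusted p = 2.8e-05), with 677 and 711 CPM in WT, and its relatives IMD3 (0.66 ± 0.12, adjusted p = 0.0019) and IMD4 (0.76 ± 0.16, adjusted p = 0.0043) were higher too.

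Factors that assemble ribosomes were lower in Sdc1_KO. Of 50 genes for the small-subunit processome and 40S assembly, 25 were called lower and 3 higher, and the 3 higher (PWP2, RRP7 and KRR1) lie on chromosome III. Of 51 genes for 60S assembly, 24 were called lower and 0 higher. The medians were -0.39 and -0.46. Against WT both lists stood higher in Sdc1_KO, with medians of 1.05 and 0.91, unlike NOP7 below. NOP7 had 676 and 824 CPM in Sdc1_KO, against 1407 and 1352 CPM in Sdc1_mut (-0.88 ± 0.15, adjusted p = 0.0013), and 616 and 810 CPM in WT. LTV1, of late 40S assembly, had 150 and 205 CPM, against 341 and 315 CPM (-0.88 ± 0.15, adjusted p = 0.0016). NOG2, a GTPase of 60S assembly, had 32.8 and 38.1 CPM, against 85.4 and 84.4 CPM (-1.26 ± 0.17, adjusted p = 0.00023), a value that may include reads of the small RNA SNR191 inside the gene.

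The element GATGAG (PAC) lay in 45 of 50 and 47 of 51 promoters of these lists, against 20.4% of all promoters. Leaving out the first Sdc1_KO library left 17 and 21 genes lower, leaving out the second gave 34 and 39, and leaving out the first or second Sdc1_mut library gave 14 and 12, or 11 and 16. RSA4, a 60S factor on chromosome III, had 31.3 and 26.2 CPM in Sdc1_KO, against 22.8 and 26.1 CPM in Sdc1_mut (0.23 ± 0.24, adjusted p = 0.54).

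The ribosomal proteins themselves mostly did not pass: 2 of 56 small-subunit genes were called higher and 8 lower, and 1 of 78 large-subunit genes higher and 4 lower. Without the second Sdc1_KO library 26 and 20 were lower, and without the second Sdc1_mut library 1 and 0. The paralogues RPS14A and RPS14B, which encode the same protein of the small subunit, moved apart. RPS14A, on chromosome III, had 2502 and 2844 CPM in Sdc1_KO, against 1376 and 1469 CPM in Sdc1_mut (0.91 ± 0.12, adjusted p = 0.00017). RPS14B, on chromosome X, had 20.3 and 24.6 CPM, against 72.5 and 83.9 CPM (-1.80 ± 0.12, adjusted p = 7.8e-07), below all other 10 libraries.

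Of 25 multidrug transporters and Pdr targets, 10 were called lower and 1 higher, against 5 lower without the first Sdc1_mut library and 6 without the second. PDR5, the main drug efflux pump, had 2096 and 4349 CPM in Sdc1_KO, against 7323 and 7739 CPM in Sdc1_mut (-1.22 ± 0.25, adjusted p = 0.0046). PDR3, which activates it, had 51.1 and 44.5 CPM, against 59.9 and 66.3 CPM (-0.40 ± 0.10, adjusted p = 0.011). AQR1, an exporter of amino acids and acids, had 28.1 and 17.2 CPM, against 125 and 122 CPM (-2.45 ± 0.19, adjusted p = 2.2e-06), with 9.01 and 10.6 CPM in WT. The Sdc1_KO libraries were lower than both Sdc1_mut libraries in each. The letters CCGCGG lay in 1 of 25 promoters of this list, that of PDR3, against 1.22% of all promoters. The window reaches 250 bases before the start, so the count cannot say whether a gene has the letters farther upstream.

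Carbon genes differed one by one. MDH2, the cytosolic malate dehydrogenase of gluconeogenesis, had 48 and 50.9 CPM in Sdc1_KO, against 202 and 187 CPM in Sdc1_mut (-1.98 ± 0.10, adjusted p = 5.9e-08), below all other 10 libraries. PCK1, which commits cells to gluconeogenesis, had 78.6 and 71.3 CPM, against 177 and 151 CPM (-1.13 ± 0.15, adjusted p = 0.00023). MLS1, malate synthase of the glyoxylate cycle, had 28.9 and 25.8 CPM, against 13.2 and 11.6 CPM (1.15 ± 0.15, adjusted p = 0.00021). The list of gluconeogenesis, glyoxylate cycle and acetate genes had 5 of 17 higher, 1 of them (ADY2) on chromosome III, and 4 lower, against 4 and 2 without the first Sdc1_mut library and 3 and 3 without the second. HXT3, a low-affinity glucose transporter, fell to 1905 and 2231 CPM, against 3780 and 4058 CPM in Sdc1_mut (-0.92 ± 0.13, adjusted p = 0.00023). TDH1, a glyceraldehyde phosphate dehydrogenase, fell by 1.00 ± 0.13 on the log2 scale (adjusted p = 0.00019). Of 21 genes of glycolysis and fermentation 1 was called higher and 2 lower, against 12 lower without the second Sdc1_KO library and 3 higher without the first. The higher gene was PGK1, on chromosome III, with 6504 and 9805 CPM, against 4323 and 4463 CPM (0.89 ± 0.17, adjusted p = 0.003).

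Mating genes were partly higher. The a-cell receptor STE2 had 172 and 243 CPM in Sdc1_KO, against 70.2 and 81.5 CPM in Sdc1_mut (1.45 ± 0.15, adjusted p = 2.8e-05). Of 7 a-specific genes 3 were called higher (STE2, STE6 and ASG7; 5 without the first Sdc1_KO library), and of 5 alpha-specific genes 0 were called, with 0 on chromosome III in either list. The summed level of the a-specific genes was 390 to 545 CPM in Sdc1_KO and 239 to 265 CPM in Sdc1_mut, and that of the alpha-specific genes 59.8 to 70.5 CPM and 73 to 74.2 CPM. STE3, the receptor that defines alpha cells, had 6.97 and 4.63 CPM in Sdc1_KO, against 10.4 and 7.7 CPM in Sdc1_mut (-0.64, adjusted p = 0.14).

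Of 26 pheromone response and haploid genes outside chromosome III, 5 were called higher and 1 lower, with a median log2 fold change of 0.09. That share called was near the 19.6% of all genes outside chromosome III. With chromosome III the median of the 30 genes was 0.13, and 0.06 without the second Sdc1_KO library. Of the 30, 9 were called higher and 1 lower, and 4 of the 9 lie on chromosome III (STE50, FUS1, KAR4 and FIG2). These included the fusion gene FUS1, with 54.6 and 64.8 CPM in Sdc1_KO, against 17.2 and 16.7 CPM in Sdc1_mut (1.82 ± 0.13, adjusted p = 9.4e-07), and FIG2, a wall protein of mating, with 131 and 198 CPM, against 34.3 and 35.6 CPM (2.23 ± 0.19, adjusted p = 3.9e-06). Outside chromosome III, SST2, which turns off the receptor's G protein, had 48.2 and 48.1 CPM, against 19.2 and 19.5 CPM (1.31 ± 0.10, adjusted p = 2e-06), and the agglutinin anchor AGA1 had 73.9 and 170 CPM, against 33.9 and 43.6 CPM (1.65 ± 0.28, adjusted p = 0.0013).

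Stable noncoding RNAs were lower where they passed. TLC1, the RNA of telomerase, had 126 and 102 CPM in Sdc1_KO, against 250 and 236 CPM in Sdc1_mut (-1.09 ± 0.13, adjusted p = 6.4e-05), and LSR1, the U2 spliceosomal RNA, had 78.3 and 136 CPM, against 243 and 267 CPM (-1.25 ± 0.20, adjusted p = 0.0007). Of 47 small nucleolar and nuclear RNAs tested, 9 were called lower and 0 higher, with a median of -0.57. That share called was near the 21.1% of all nuclear genes tested (10.1% lower and 11.0% higher). In a fit of these 4 libraries alone 4 of the 47 were lower. SNR84 had 8.21 and 8.37 CPM, against 25.7 and 22.1 CPM (-1.52 ± 0.16, adjusted p = 3.2e-05). Without the first Sdc1_mut library 5 of the 47 were lower and without the second 4.

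Single genes of other functions stood among the falls of greatest size. HUG1, a brake on ribonucleotide reductase known from DNA damage, had 11.7 and 4.04 CPM in Sdc1_KO, against 39 and 38.6 CPM in Sdc1_mut (-2.32 ± 0.31, adjusted p = 0.00019). RIB4, of riboflavin synthesis, had 153 and 151 CPM, against 615 and 593 CPM (-1.99 ± 0.12, adjusted p = 2.5e-07). FDH1, formate dehydrogenase, had 4.17 and 3.44 CPM, against 22.5 and 15.3 CPM (-2.30 ± 0.30, adjusted p = 0.00017), but it has a near-identical copy and is uncertain, as are the retrotransposon genes YDR210C-C (-2.10) and YDR210C-D (-1.85). These falls were picked among genes whose libraries of the strains did not overlap, so that separation is no separate result.

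**Figure D5:**
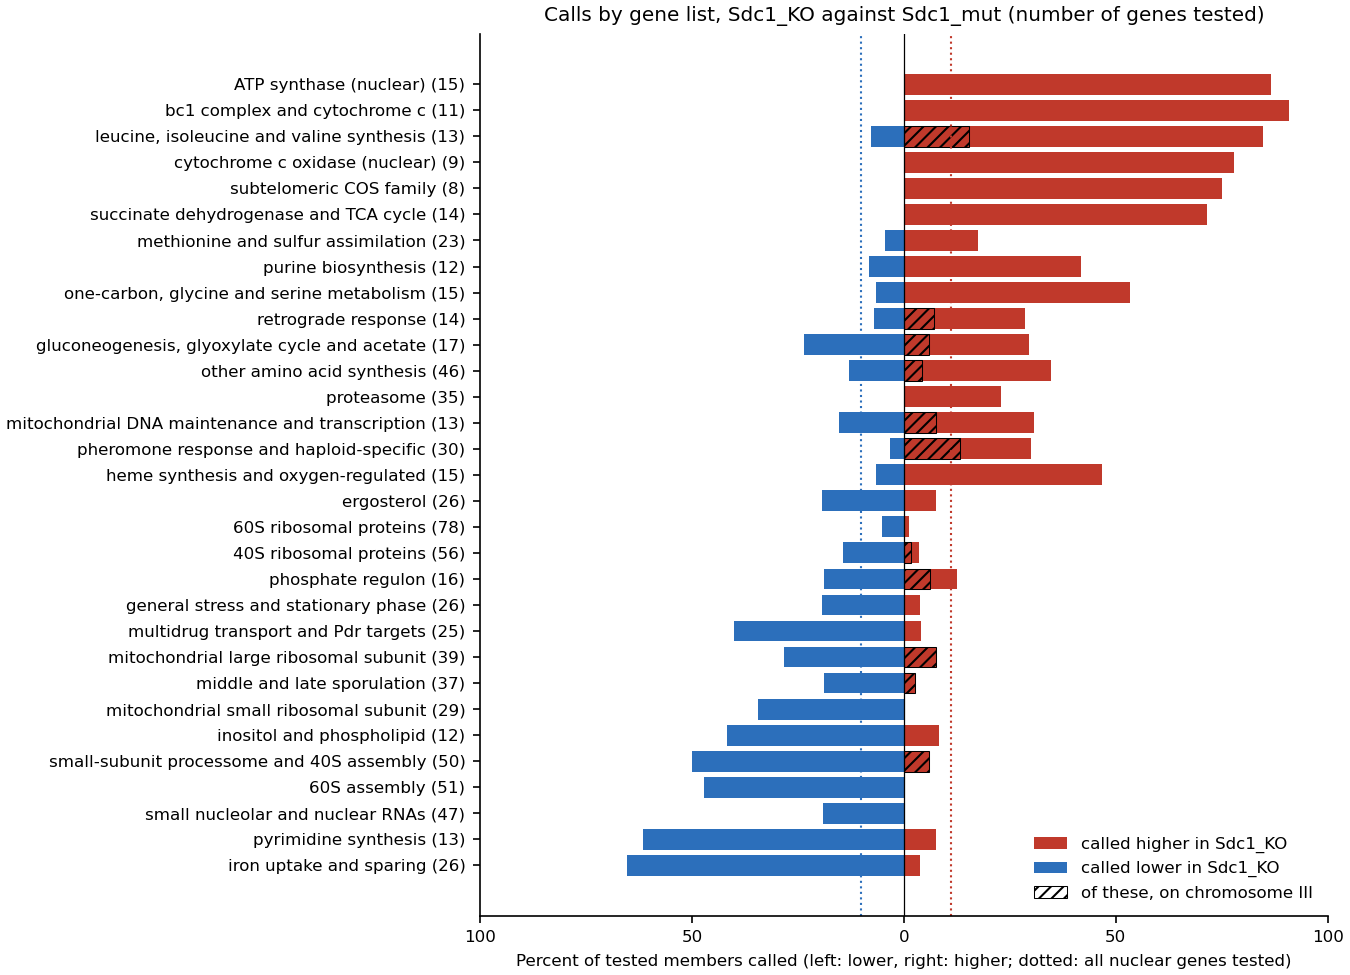
Percent of tested members called lower (left, blue) and higher (right, red) in Sdc1_KO against Sdc1_mut, for each gene list with 5 or more called members; the number tested is in parentheses, hatching marks called members on chromosome III, and dotted lines mark 10.1% lower and 11.0% higher over all nuclear genes tested. Lists are ordered by median log2 fold change, with the ATP synthase (13 of 15 higher) at the top and iron uptake (17 of 26 lower) at the bottom.

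The Dpy30_KO strain, which lacks the motif that binds Bre2, also keeps an SDC1 transcript. Against Sdc1_mut it had 1 called gene of 6340 (0.0158%) by edgeR, SDC1 itself, with 14.5 and 14.3 CPM in Dpy30_KO, against 38.5 and 39.2 CPM in Sdc1_mut (-1.43, adjusted p = 0.00047). At an unadjusted p under 0.05 there were 437 genes, and DESeq2 called 3 (SDC1, TSA1 and TLG1) and limma 2 (SDC1 and YLL066C). Sdc1_KO against Dpy30_KO, which shares the Sdc1_KO libraries with the main comparison, called 1582 genes (25.0%), 869 (13.7%) higher and 713 (11.2%) lower. On chromosome III 128 of the 160 genes were higher than in Dpy30_KO and 0 lower, with a median of 0.93 among genes of at least 5 CPM. FIT3 stood at -4.66 ± 0.16 (adjusted p = 2.6e-09) against Dpy30_KO, URA1 at -3.48 ± 0.14 (adjusted p = 8.6e-09) and HEM13 at 3.66 ± 0.21 (adjusted p = 1.6e-07). The iron list had 18 of 26 lower than in Dpy30_KO with a median of -0.90. For ribosome assembly fewer genes passed than against Sdc1_mut: 7 of 50 processome genes were lower and 4 higher than in Dpy30_KO with a median of -0.14, and 12 of 51 genes of 60S assembly were lower with a median of -0.17. Whether the 2 comparisons differ in these lists was not tested.

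Both strains were also set against WT, in comparisons that share the WT libraries and so are not independent. Sdc1_KO differed from WT in 50.5% of genes tested, 28.0% higher and 22.5% lower, and Sdc1_mut in 52.4%, 28.0% higher and 24.4% lower. For the iron list the median log2 difference from WT was -0.06 in Sdc1_KO and 1.08 in Sdc1_mut, and for the pyrimidine list 0.61 and 1.16. For bc1 and cytochrome c it was -0.95 in Sdc1_KO and -1.59 in Sdc1_mut, for the ATP synthase -0.26 and -1.03, and for leucine, isoleucine and valine synthesis -0.62 and -1.58. For the small-subunit processome it was 1.05 in Sdc1_KO and 1.39 in Sdc1_mut, and for 60S assembly 0.91 and 1.39. In other lists the median of Sdc1_KO lay farther from 0, the level of WT, than that of Sdc1_mut. It was 0.96 in Sdc1_KO and 0.74 in Sdc1_mut for purine synthesis, 1.16 and 0.62 for guanine nucleotides, 1.02 and -0.32 for DAN and TIR genes, 0.48 and 0.05 for methionine and sulphur, 0.58 and -0.12 for COS genes, and -0.37 and -0.05 for the small mitochondrial ribosomal subunit. For purine and methionine genes this rested on the first Sdc1_KO library. Relative to each gene's 12-library median, the purine list lay at 0.82 and 0.21 in Sdc1_KO, against 0.18 and 0.24 in Sdc1_mut. The methionine and sulphur list lay at 0.84 and -0.06 in Sdc1_KO, -0.06 and -0.01 in Sdc1_mut, and -0.06 and -0.03 in WT. The first Sdc1_KO library also lay farther out for 2 other lists. The COS genes lay at 0.61 and 0.20 in Sdc1_KO, and the small mitochondrial ribosomal subunit at -0.36 and -0.09.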

How the data were processed

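RNA was measured as fragments per gene in 12 libraries. The values are expected counts: the authors deposited raw fragments per gene and library, and the submitters' processing notes name bcl2fastq 2.17.1.14, TopHat, Cufflinks and the sacCer3 genome. The authors also deposited FPKM values, which were not used here. The annotation, the strand setting and the treatment of reads with several matches are not given in the sources used here. Of the deposited counts 97.8% were whole, and the rest were rounded. Values of 366 genes with a near-identical copy (at least 95% identity over at least 50% of the gene) and 218 that overlap another by at least 10% are uncertain.

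Totals ran from 8652878 to 26041718 fragments in the series. Genes were filtered by edgeR's filterByExpr (6361 of 7112 identifiers passed, 6340 of them nuclear), scaled by TMM, and tested with edgeR 4.0.16 (R 4.3.3) by the quasi-likelihood F test in one fit of 6 groups, with Benjamini-Hochberg adjustment over all identifiers tested and a threshold of 0.05. Standard errors were taken from the ratio of each log2 fold change to the root of its F statistic. The procedure was tested on simulated data with 200 changed genes. The alternatives were DESeq2 1.42.0, limma 3.58.1 on log2 CPM, other scaling, no filter, fewer groups, a replicate block and leaving out each library. Shared replicate numbers did not pair the libraries of both strains (correlation of deviations -0.026). Promoters run from 250 bases before to 50 after the RefSeq start.

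Genes were named by rule: the Set1 complex and JHD2, the 15 largest rises and falls of at least 5 CPM, the 6 genes each way farthest outside the other 10 libraries, up to 6 called members of each list, and a few fixed names. The 15 largest each way were taken only from called genes whose Sdc1_KO and Sdc1_mut libraries did not overlap. CCC1, FUR1, BAT2, STE3, STE6, ASG7, HHF1, SNT1, HSP30 and SRO9 were named after their values were seen. The members and lists were chosen with earlier results of these data known. The chromosome III description and the Ppr1 element were added after the values were seen.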

Additional observations from a re-analysis of the deposited data

Results flagged for a closer look

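For 12 of the genes named for the size of their change or their distance from the other 10 libraries, Sdc1_KO and Sdc1_mut lay on opposite sides of WT, both past the threshold of edgeR's quasi-likelihood test, and the difference between the strains was tested directly. HEM13 was higher in Sdc1_KO (0.72 ± 0.19 against WT, adjusted p = 0.007) and lower in Sdc1_mut (-2.86 ± 0.21, adjusted p = 5.4e-07), a difference of 3.58. The mating genes FIG2 (difference 2.23), KAR4 (1.85) and FUS1 (1.82), all on chromosome III, stood at 1.63, 1.34 and 1.34 against WT in Sdc1_KO and at -0.61, -0.51 and -0.48 in Sdc1_mut. BIO2, biotin synthase, differed by 1.81, with 0.52 in Sdc1_KO and -1.29 in Sdc1_mut. COS10, of a subtelomeric family, differed by 1.70, with 0.64 in Sdc1_KO and -1.06 in Sdc1_mut.

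In the other direction URA1 differed by -3.46, with -1.75 ± 0.13 against WT in Sdc1_KO (adjusted p = 1.7e-06) and 1.71 ± 0.13 in Sdc1_mut (adjusted p = 7.5e-07). TIS11 differed by -3.03 (-1.02 in Sdc1_KO and 2.01 in Sdc1_mut against WT), FET3 by -2.75 (-0.71 and 2.04), RIB4 by -1.99 (-0.84 and 1.15), MDH2 by -1.98 (-1.22 and 0.76) and RPS14B by -1.80 (-1.29 and 0.51). The WT libraries are shared by both sides of these comparisons.

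RNA encoded on mitochondrial DNA, which the gene comparisons left out, came to 2739 fragments per 1000000 in the lower Sdc1_KO library, against at most 0.8328 in the Sdc1_mut libraries.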

How the results depend on the processing

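The count of genes called between Sdc1_KO and Sdc1_mut was 1339, and between 1318 and 1346 with RLE scaling, DESeq2, limma or no filter. A fit of those 2 groups alone gave 436, and leaving out 1 library gave 627 to 2121. For Sdc1_KO against Dpy30_KO the count of 1582 became 482 in the 2 groups alone and 788 to 2215 without 1 library. For Dpy30_KO against Sdc1_mut the single call became 3 with DESeq2, 2 with limma, 17 in the 2 groups alone and 1 to 2 without 1 library. Genes with Sdc1_KO outside the other 10 libraries numbered 620 to 1228 without 1 Sdc1_KO library, against 513. The median of chromosome III was 0.92 with RLE scaling, 0.92 with DESeq2 and 0.95 in the 2 groups alone, against 0.93. Of 244 called genes named by the rule, 111 missed the threshold in the 2 groups alone, 36 and 10 without the first or second Sdc1_KO library, 71 and 81 without the first or second Sdc1_mut library, and 2 to 7 with another tool, scaling or no filter. SER3 was -0.90 without the first Sdc1_KO library and 1.10 without the second, and the cause was not tested. The replicate block gave 1393 calls, and the numbers did not pair the libraries. Where 1 library of a group is left, it is assumed to vary like the other groups. With 2 libraries a group the precision is limited by the spread between libraries, and genes of few fragments by counting. The fit of Sdc1_KO and Sdc1_mut alone also lowered the counts of many gene lists. The lower genes went from 25 to 8 for the small-subunit processome and 40S assembly and from 24 to 11 for 60S assembly. The iron list kept 16 of 17.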

Other observations

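Several groups outside the main account held called genes. Over all nuclear genes tested, 11.0% were called higher and 10.1% lower by edgeR, 21.1% in all. The proteasome and sporulation lists below had a share called near that 21.1%. In a fit of the Sdc1_KO and Sdc1_mut libraries alone, 0 proteasome genes were called. Of 10 genes of the zinc regulon 4 were called higher in Sdc1_KO and 0 lower, led by IZH4, a membrane protein of zinc homeostasis, at 2.65 ± 0.30, and 8 were higher and 1 lower without the second Sdc1_KO library. Of 35 proteasome genes 8 were higher and 0 lower, with a median log2 fold change of 0.17, against 17 higher without the first Sdc1_KO library and 2 without the second Sdc1_mut library. Of 8 COS genes tested 6 were higher, with a median of 0.64, and 1 in the fit of the Sdc1_KO and Sdc1_mut libraries alone. Members of this family share sequence and are uncertain. Of 37 middle and late sporulation genes 7 were lower and 1, on chromosome III, higher, with 1 lower without the first Sdc1_mut library and 4 without the second. Of 12 inositol and phospholipid genes 5 were lower and 1 higher, with 8 lower without the second Sdc1_KO library and 2 without the first or without the second Sdc1_mut library.

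Lists of chromatin genes were too small to be set apart from the 21.1% of all genes called by edgeR. None of 5 JmjC proteins (0) was called, SNT1 on chromosome III was the 1 called member of 7 in the Set3 complex, and 2 of 12 genes for H2B ubiquitination, the Paf1 complex, SET2 and DOT1 were called lower, against 6 without the second Sdc1_KO library and 0 without the second Sdc1_mut library. Of 8 core histone genes 1 was called higher (HHF1, 0.46), against 4 higher without the first Sdc1_KO library and 5 lower without the second. None of 6 galactose genes (0) was called.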
